A study of Eptesicus fuscus and Canis lupus familiaris and Equus caballus with 4 samples.

Results

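A family of related hairpins was followed in the testis small RNA of the big brown bat, Eptesicus fuscus. The family is named here after Candidate_97, which shares the highest read count of the family with Candidate_493. Its members are the bat hairpin candidates that could be joined to Candidate_97 by chains of blastn alignments, in which 50 bases or more match at 80% identity or better, hairpins that overlap on the same strand not being linked to each other. This rule found 49 of the 762 bat candidates, at 33 loci on 23 contigs. The whole series listed 1453 candidates in 3 species. Each candidate is a short genomic stretch, predicted to fold into a hairpin, with the sequence of its mature small RNA. Membership used the hairpin sequences alone, but the family was chosen by its high read counts, so reads are given as a description and no test was made of them.

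The series holds small RNA of adult testis from dog, horse and bat, with 4 libraries in all and no treatment named. The list used here came from 1 bat library, and the library of a second bat was not analysed here. Testes had been snap frozen and ground, total RNA was extracted with TRIzol, and its small RNA fraction was read as single 50 bp reads. With 1 library there was no replicate, so intervals below are exact Clopper-Pearson 95% intervals that cover counting error only and treat reads or candidates as independent. The whole organ was ground, so the cell type in which these RNAs lay is not known, and fewer cells of a type cannot be told apart from less RNA per cell.

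MicroRNAs (miRNAs) are cut from hairpin transcripts, first at the base of the stem by the nuclease Drosha and then near the loop by Dicer. The cuts leave a short duplex of a 5p strand (before the loop) and a 3p strand (after it), with an unpaired overhang at each 3′ end. One strand is usually kept by an Argonaute protein and the other is lost. The bases near the 5′ end of the kept strand, the seed, pair with target messages, so a change of seed, or a shift of the 5′ end, changes which messages can be bound. Testes of mammals are known for clusters of miRNA genes that have multiplied and changed fast between species.

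The mature sequences that lead the seed groups are shown first, since the members are grouped by seed below. Each is written 5′ to 3′ with T for U, as deposited, and the capitals mark the seed (bases 2 to 8). They are ordered by reads within each arm, and Candidate_155 is added as the other sequence of the leading seed group. The 5p sequences were as follows.
Candidate_97: tTGGCTGCatcactggtactgatgt
Candidate_155: tTGGCTGCatcactggtactgaggt
Candidate_487: gTTGGCGGtatcactggtactgtgg
Candidate_578: aGGCGGAAtggctggtactgaagta
Candidate_192: tTGCGGTTttgctggtactgaggt
Candidate_49: gAAGTGGCatggctggtagtatgg
Candidate_196: gTTGCAGTaaggctggtactgat
Candidate_41: tTGCGGTAtggctggtactgaga
Candidate_48: aGGAGGCAtggctggtagtatgg
Candidate_746: tGGTGGCAtcactggtactgatgt

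On the 3p arm the corresponding sequences were these.
Candidate_51: aTACTGCCagacatgccacctttc
Candidate_187: aTAACTGCcagacatgccaccttcc
Candidate_565: tAACTGCCagacatgccgctttcc
Candidate_672: tACTGCTAgtcatgccgcttact
Candidate_818: tACTTCCAgtcatgccactttcct

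Whole loci, 4 in number, show how these sequences sit in the hairpin. They were chosen as a locus with the highest read count (Candidate_493 has the same), the 5p-rich locus with most reads that also has a 3p candidate, the locus with the longest unbroken stem, and a 3p-rich locus. Capitals mark the mature sequences, and the 5p sequence comes before the 3p one.
Candidate_97: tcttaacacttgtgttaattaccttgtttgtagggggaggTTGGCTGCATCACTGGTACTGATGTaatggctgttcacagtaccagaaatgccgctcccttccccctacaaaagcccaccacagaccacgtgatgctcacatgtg
Candidate_487: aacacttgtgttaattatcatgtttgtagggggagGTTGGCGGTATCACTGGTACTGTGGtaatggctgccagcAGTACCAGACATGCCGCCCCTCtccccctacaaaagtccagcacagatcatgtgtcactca
Candidate_49: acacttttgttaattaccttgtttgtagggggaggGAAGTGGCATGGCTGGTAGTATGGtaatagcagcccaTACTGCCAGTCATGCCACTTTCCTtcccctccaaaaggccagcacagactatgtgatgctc
Candidate_53: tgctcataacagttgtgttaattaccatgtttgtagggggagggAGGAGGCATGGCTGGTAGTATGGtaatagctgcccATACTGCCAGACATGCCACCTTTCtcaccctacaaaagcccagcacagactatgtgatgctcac

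These loci lie on unplaced contigs of a bat assembly which the labels do not name, and no gene annotation of it was used. The Candidate_97 hairpin spans ALEH01124406.1, 1840 to 1984 on the minus strand, and Candidate_487 lies at ALEH01160448.1, 676 to 810 on the minus strand. Candidate_49 lies at ALEH01113581.1, 1049 to 1181, and Candidate_53 at 9123 to 9265 of the same contig, both on the plus strand.

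The family carried many reads for its number of members. It made up 6.43% of the bat candidates and its counts summed to 15831 reads, 17.8% (17.5 to 18.0) of the 89091 reads listed for the bat. Members with an identical mature sequence listed the same reads more than once, since all 9 mature sequences found at several members had equal read counts and equal numbers of distinct read sequences at each of them. With each identical sequence once the family had 7306 reads, 9.32% (9.12 to 9.53) of 78353. The median member had 23 reads and the median of the other 713 bat candidates was 3. Of the 49 members, 29 had at least 10 reads (59.2%, 44.2 to 73.0), against 31.7% (28.3 to 35.3) of the other candidates. A single member, Candidate_747, rested on 1 read.

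Reads were spread very unevenly over the members. The 49 members held 28 distinct mature sequences, 14 on each arm. Candidate_97 and Candidate_493 listed the first of them with 2451 reads in 87 distinct read sequences each. Candidate_155, Candidate_909 and Candidate_910 listed the second with 2198 reads in 93 distinct read sequences each. The authors' fraction of all reads in their analysis was 0.025 for the former and 0.022 for the latter.

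These leading sequences share their first 22 bases and differ by T23G, counted from 1 at the 5′ end of the Candidate_97 sequence. They have the same seed, and with each sequence once they made up 63.6% of the reads of the family. The labels do not say how many mismatches the mapping allowed, so some reads may stand under both.

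The next pair was far lower. Candidate_487 had 640 reads and Candidate_423 had 626, with sequences that share the seed TTGGCGG. They had more distinct read sequences than the leading pair, 101 and 96, which is 15.8 and 15.3 per 100 reads where Candidate_97 had 3.55 per 100.

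The strongest 3p sequence was listed with 333 reads at Candidate_51, Candidate_53, Candidate_670 and Candidate_817. Next came the 5p sequences of Candidate_578 with 310 reads and Candidate_192 with 261. The 5p sequence that was listed most often lay at Candidate_49, Candidate_422, Candidate_521, Candidate_671 and Candidate_819, with 153 reads. The other 20 mature sequences had 1 to 58 reads each.

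**Figure D1:**
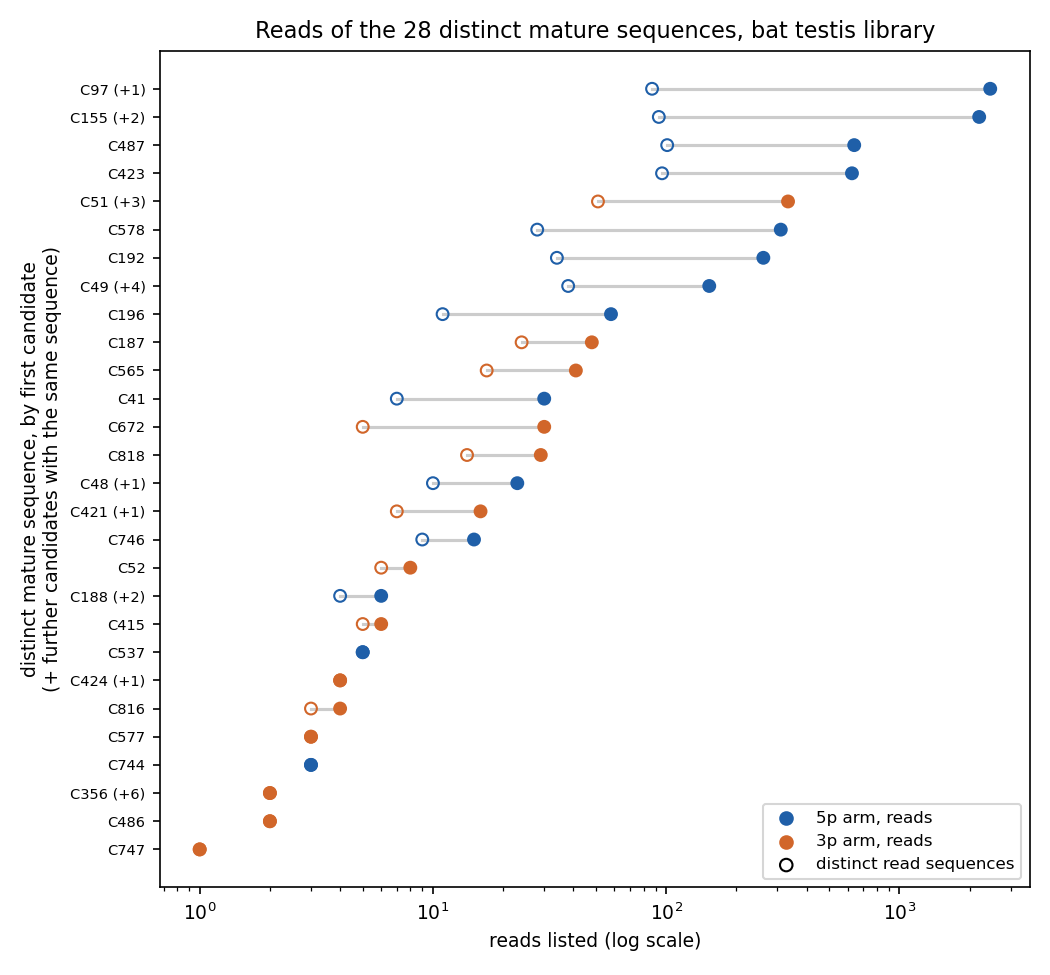
Reads (filled points) and distinct read sequences (open points) of each of the 28 distinct mature sequences of the family in the bat library, on a log axis, blue for the 5p arm and orange for the 3p arm. The sequences of C97 (2451 reads) and C155 (2198 reads) stand apart from the next, C487 with 640 reads, and C51 with 333 reads is the highest 3p sequence. C stands for Candidate_.

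The members were split over many seeds. The 28 mature sequences had 22 different seeds, and no seed occurred on both arms. The leading seed, TGGCTGC, was held by 5 members. It was followed by TTGGCGG with 2 members and 17.3% of the reads with each sequence once, and by the 3p seed TACTGCC with 4 members and 4.56%. GGCGGAA (4.24%, Candidate_578), TGCGGTT (3.57%, Candidate_192) and AAGTGGC (2.09%, 5 members) came next. The other 16 seeds had 58 reads or fewer each with identical sequences once. The seed with most members, GTACCAG, had 10, all on the 3p arm, but these listed 2 to 6 reads each.

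The mature sequences did not all begin at the same place. All 24 mature sequences listed on the 5p arm contain the letters CTGGTA, which began after 11 bases in 6 members, after 12 in 16 and after 13 in 2. The 25 mature sequences on the 3p arm all contain CATG, with 9 bases before it in 10 members, 10 in 6, 11 in 8 and 12 in 1. Candidate_187 and Candidate_565, for example, both hold the letters AACTGCCAGACATGCC. Candidate_187 has AT before them and Candidate_565 has T, so their seeds are TAACTGC and AACTGCC. Both carry AA directly before CTGCC where Candidate_51 has only A, so their counts of 12 and 11 bases before CATG include an added base.

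Along the hairpin, the stretch that holds the seed of Candidate_97 was among the variable ones, and a stretch in the middle of the 5p sequence was the same at every locus. The 33 loci were aligned with MAFFT and read at the positions of Candidate_97. The 5p mature sequence had the most common base in 80.7% of loci on average, the loop in 85.5%, the 3p arm opposite in 88.6%, the 15 bases of stem just before the 5p sequence in 96.6%, and the 15 bases after the 3p arm in 87.3%. Within the 5p sequence, bases 13 to 18, the letters CTGGTA, were the same at 33 of 33 loci. Bases 2 to 8, the seed of Candidate_97, agreed in 74.0% on average and bases 9 to 12 in 74.2%. Seeds of members that begin at another base, or on the 3p arm, were not measured in this way. At bases 1, 2, 11 and 12 the most common base was found at 17 loci, 51.5%. At bases 11 and 12 these were the 17 loci joined to Candidate_97 at 90% identity, described below. There the value parts that group from the other loci.

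**Figure D2:**
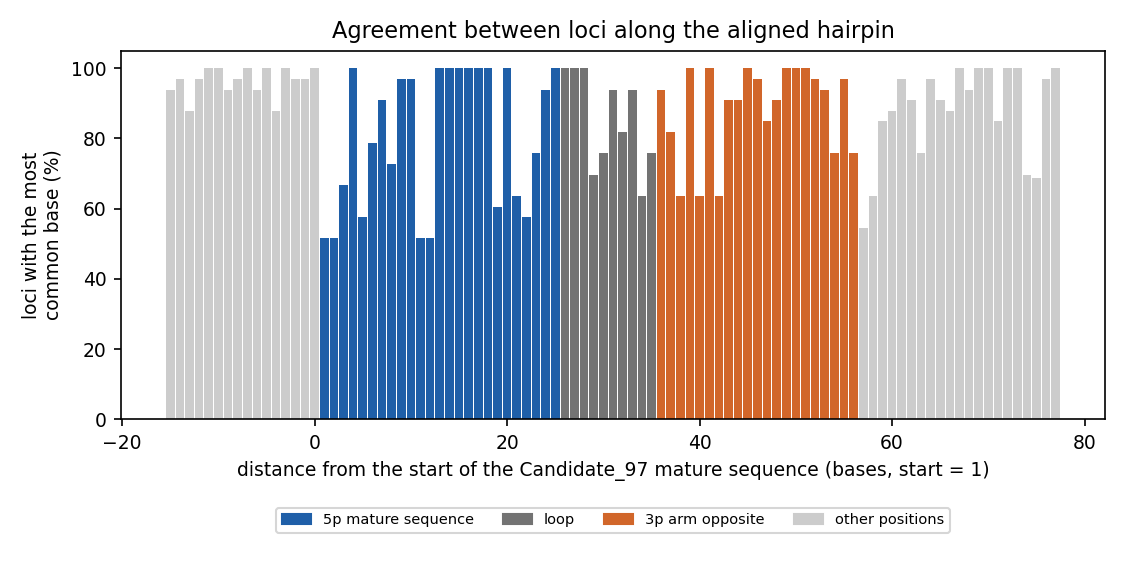
Percent of loci that have the most common base at each position of the aligned hairpins, plotted by distance in bases from the start of the Candidate_97 mature sequence, with the 5p mature sequence in blue, the loop in dark grey, the 3p arm in orange and other positions in light grey. Positions 13 to 18 reach 100%, and positions 2 to 8, the seed of Candidate_97, average 74.0%.

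The letters CTGGTA, searched on the strand of the hairpin, were in all 49 family hairpins, 3.37% of the other bat hairpins, 0.456% of the horse hairpins and 1.19% of the dog hairpins. Searched on both strands the shares were 100%, 5.47%, 2.05% and 1.98%. The longer CTGGTACTG and CTGGTAGTA both contain it. On the hairpin's strand the former was in 25 family hairpins and the latter in 21, and neither was found on either strand in the other bat, horse and dog hairpins. The 3p letters CAGACATGCC were in 30 family hairpins and in none outside the family. The family was built by sequence likeness, so these counts describe it and do not test it.

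By likeness of their hairpins the members fell into a pair of large groups and 4 loci that stood alone. At a limit of 90% identity, the group of Candidate_97 held 22 members at 17 loci and 5953 reads with each sequence once. The group of Candidate_51 also held 22 members, at 12 loci, with 691 reads. The locus of Candidate_578, with its 3p partner Candidate_577, and the loci of Candidate_192, Candidate_196 and Candidate_41 each stood alone, with 313, 261, 58 and 30 reads. The best sequence of a locus had 2 to 2451 reads in the group of Candidate_97 and 6 to 333 in the group of Candidate_51.

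Of the 528 pairs of loci, 303 were at least 80% identical and 88 at least 90%, and the lowest pair was at 68.9%. The median locus was 96.1% identical to its nearest neighbour, with a range of 85.4 to 100%. Candidate_97 itself was 92.6% identical to Candidate_493, its nearest locus, although both list the same mature sequence. Identical hairpins were found for Candidate_909 and Candidate_910 over 125 bases, on the same contig, and for Candidate_422 and Candidate_521 over 93 bases, on contigs with successive names.

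The edge of the family was a wide one. The loosest member, Candidate_41, was linked at 85.4% identity at best, followed by Candidate_578 at 85.6% and Candidate_192 at 86.2%. The shortest of the longest links was 91 bases, for Candidate_564. Outside the family the longest alignment to any member was 37 bases, between Candidate_817 and Candidate_352, at 73.0% identity.

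**Figure D3:**
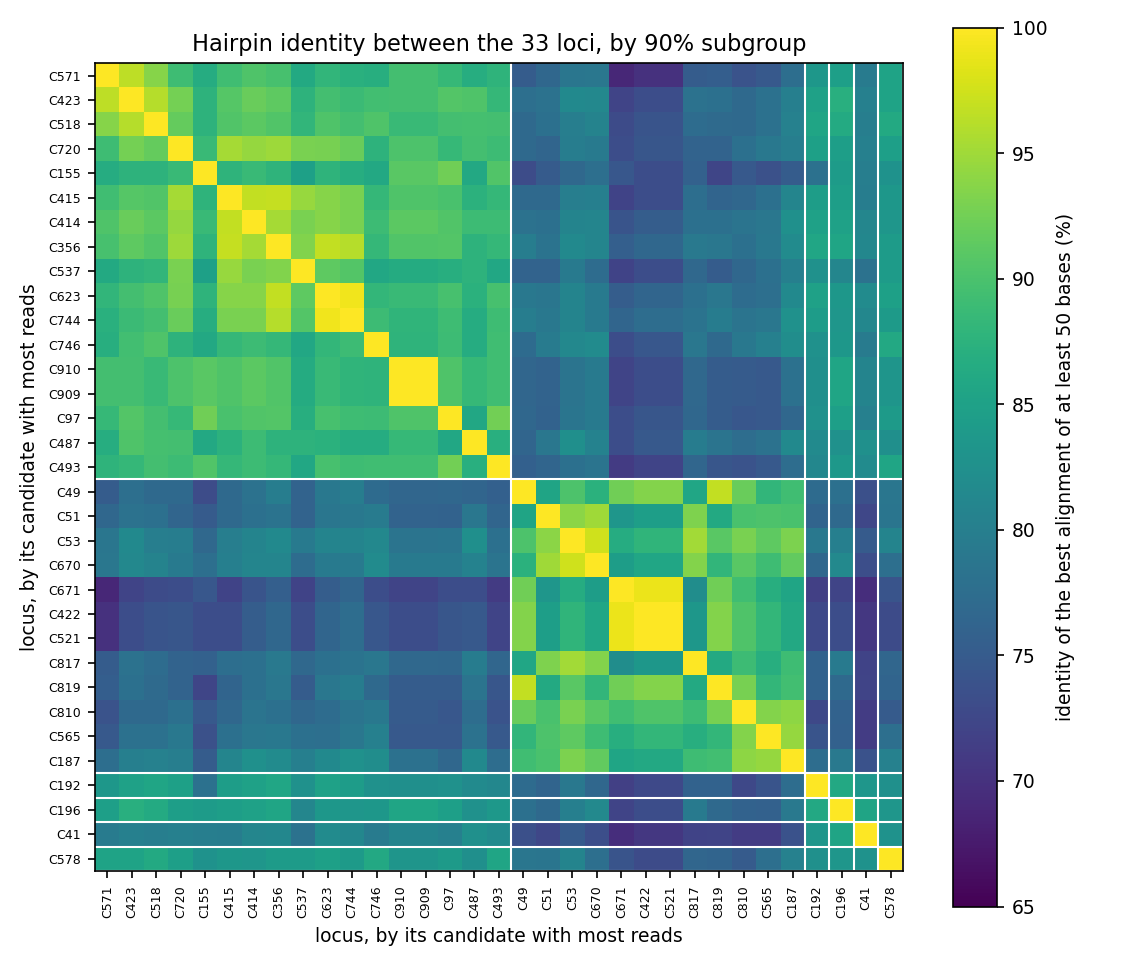
Identity, in percent, of the best alignment of at least 50 bases between each pair of the 33 loci, ordered by groups joined at 90% identity (white lines). The group of 17 loci with C97 and the group of 12 loci with C51 form bright blocks, and pairs between these blocks are darker, down to 68.9%.

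Both arms of the hairpin gave candidates at 15 of the 33 loci (45.5%, 28.1 to 63.6), where 11.3% (8.96 to 14.0) of the 636 other bat loci had candidates on both arms. A locus can list both arms only where each has reads, and the family was chosen for its high reads. Its median member had 23 reads and the median other candidate 3. Whether the shares would differ at like read counts was not tested, and loci that list the same sequences were counted separately. A further 9 loci had a candidate on the 5p arm alone and 9 on the 3p arm alone. Candidates divided almost evenly, with 24 on the 5p arm and 25 on the 3p arm, but the 5p arm held 92.8% of the reads with each sequence once. The median was 153 reads for a 5p member and 4 for a 3p member.

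Because copies list the same reads, arms were compared over sets of loci that share a mature sequence, with each sequence once. There were 14 such sets and 8 of them had reads on both arms. In 6 of the 8 the 5p arm had more reads. The 5p reads were 640 against 2 on the 3p arm at Candidate_487, 626 against 4 in the set of Candidate_423 and Candidate_571, and 310 against 3 at Candidate_578. At Candidate_746 they were 15 against 1, and in a set of 7 weakly read loci 8 against 2, where the interval of the 5p share (44.4 to 97.5%) includes equal arms.

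Within the group of Candidate_51 the arms went different ways. The set of 4 loci with Candidate_51 had 333 reads on the 3p arm and 23 on the 5p arm, a 5p share of 6.46% (4.14 to 9.54). The set of 3 loci with Candidate_187, Candidate_565 and Candidate_810 had 89 reads on the 3p arm and 6 on the 5p arm, a 5p share of 6.32% (2.35 to 13.2). The set of 5 loci with Candidate_49 and Candidate_422 had 153 reads on the 5p arm and 87 over 5 sequences on the 3p arm, a 5p share of 63.8% (57.3 to 69.8). Of these 87 reads, 4 belong to Candidate_816, whose sequence overlaps that of Candidate_818 (29 reads), so they may be the same molecules.

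Locus by locus, the 5 loci of the last set would show 5p shares from 83.6 to 95.03%, since each is credited with all 153 reads. The leading sets had no 3p candidate. Neither the 2451 reads of Candidate_97 and Candidate_493 nor the 2198 reads of Candidate_155, Candidate_909 and Candidate_910 had a listed partner on the other arm, and Candidate_192, Candidate_196 and Candidate_41 had none either. Candidate_415, with 6 reads, had a 3p sequence alone.

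**Figure D4:**
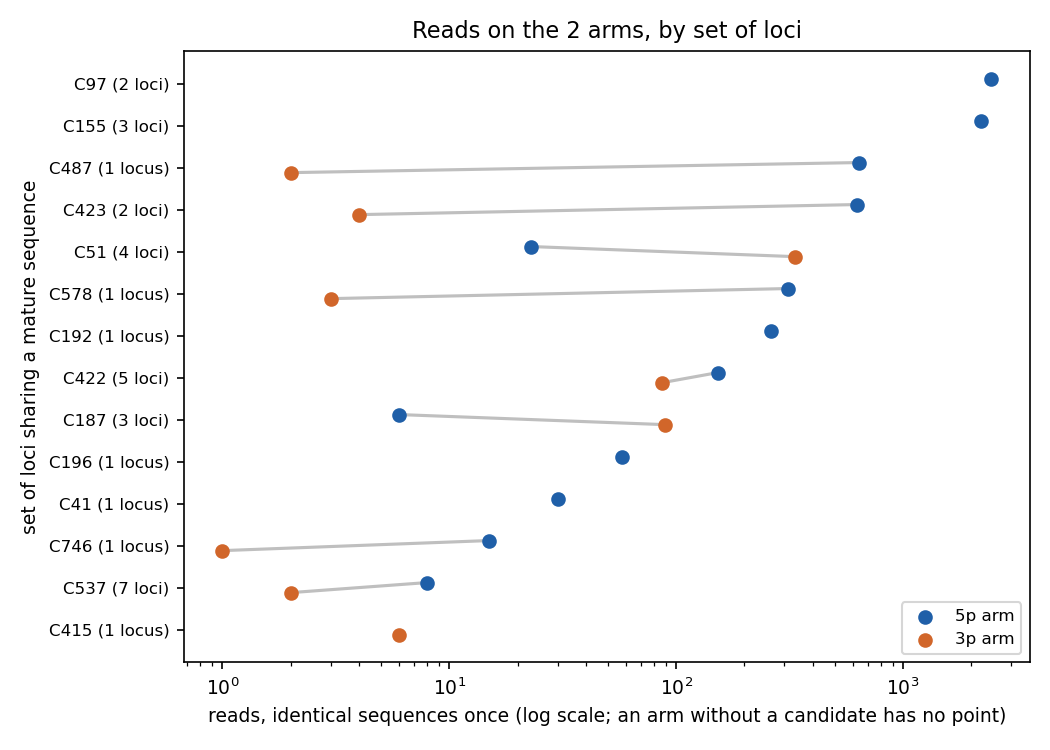
Reads on the 5p arm (blue) and the 3p arm (orange) for each of the 14 sets of loci that share a mature sequence, with identical sequences once, on a log axis. The sets of C51 (333 against 23) and C187 (89 against 6) have more 3p reads, and the set of C422 (153 against 87) has the closest arms among sets with more than 10 reads.

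Where both arms were listed, the predicted duplex had 3′ overhangs at most loci. Each locus was folded with RNAfold and the ends of the strongest 5p and 3p sequences were read against the predicted pairs. At the base of the stem the 3p sequence ran 3 bases past its partner at 6 loci, 2 at 4 loci and 1 at 4 loci, and ended level with it at 1 locus, that of Candidate_423. Loci that list the same sequences were counted separately. All 6 loci with 3 bases belong to the sets of Candidate_51 and of Candidate_422. Near the loop the 5p sequence ran past its partner by 3 bases at 5 loci, 2 at 5, 1 at 2, 4 at 2 and 6 at 1. The bases between the arms numbered 12 to 16, with a median of 13. These values use the deposited mature sequences, none of which is longer than 25 bases in the bat list.

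The mature sequences were 21 to 25 bases long, and 83.7% (70.3 to 92.7) were of 20 to 24 bases, against 78.3% (75.0 to 81.2) of the other bat candidates. On the 5p arm 15 of 24 members had 24 or 25 bases, and on the 3p arm 10 of 25. With identical sequences once these were 8 and 6 of 14. The 3p arm had 9 members of 21 bases and the 5p arm none, but 7 of the 9 list the same 2-read sequence. The first base was G in 11 of 24 and U in 10 of 24 members on the 5p arm, and A in 18 of 25 on the 3p arm. Over both arms U came first in 32.7% (19.9 to 47.5), against 48.2% (44.5 to 52.0) of the other bat candidates, intervals that overlap. These first-base values count members that list the same sequence separately. With identical sequences once, U came first in 42.9% of the family.

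Measures of the predicted stem did not all point the same way. The longest run of base pairs without a bulge or mismatch had a median of 13 pairs over the members, against 10 among the other bat candidates, and ranged from 8 at Candidate_571 to 33 at Candidate_49. Folding energy had a median of -0.47 kcal/mol per base, against -0.41 among the other bat candidates. The share of paired bases had a median of 66.1%, and 67.9% among the others. Of the 5 members with most reads, Candidate_97 (-0.40), Candidate_493 (-0.42), Candidate_909 and Candidate_910 (-0.40 each) were near the median energy of the others, and Candidate_155 was at -0.52. All 5 miRanalyzer models predicted 45 of the 49 members (91.8%, 80.4 to 97.7), against 48.8% (45.1 to 52.5) of the others. GC content had a median of 51.1%, and 56.1% among the others.

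Each hairpin was also aligned to its own reverse complement, a measure of how far its arms are inverted copies. In the family this alignment was long, with a median of 88 bases, and imperfect, with a median identity of 76.4%. A limit of 20 bases at 80% identity was set on the whole of the best alignment. By it, 3 of the 33 loci counted as inverted repeats (9.09%, 1.92 to 24.3). A shorter, better matched stretch inside a long alignment was thus not counted. Candidate_49, with its unbroken run of 33 pairs, fell short at 79.5% over 88 bases. The share counted in this way was 20.3% (17.2 to 23.6) among the other bat loci and 62.9% (52.5 to 72.5) in the largest bat family, the 97 candidates joined to Candidate_82.

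Other families of the list differed from this one in both directions. The Candidate_82 family had 97 loci, a highest count of 5 reads and 70.1% (59.96 to 78.98) of members on 1 read, where the value here was 2.04% (0.0517 to 10.9). None of its loci had candidates on both arms. In the family of Candidate_347, with 47 loci, 59.6% (44.3 to 73.6) of members rested on 1 read and none had both arms. The family of Candidate_602 held more reads on fewer members, 11343 reads at 5 loci, which is 14.5% of the listed reads with each sequence once. All 5 models predicted each of its members, none rested on 1 read and no locus had both arms. The listing of both arms was not compared between these families at like read counts. These are descriptions of families of this list, chosen after their values were seen, and no test was made between them.

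Of the 23 contigs, 14 held a single locus, 8 held 2 and 1 held 3. On the 9 contigs with several loci they were always on the same strand, so that all 10 neighbouring pairs pointed the same way. Among the other bat loci 62 of 71 pairs within 10000 bases did so (87.3%). By their lower coordinates, 8 of the 10 pairs lay 2380 to 2718 bases apart, and the remaining pairs were 5103 and 5374 bases apart. Spacings between 2300 and 2800 bases were found in 3 of the 71 other pairs (4.23%), whose median was 722 bases. The spacing window was set after the values were seen.

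The order along the strand recurred between contigs. On ALEH01113581.1, ALEH01124377.1 and ALEH01124380.1 a locus with the 5p sequence of 153 reads was followed, 2700, 2633 and 2493 bases further along the strand (from 5′ end to 5′ end), by a locus with the 3p sequence of 333 reads. On ALEH01124378.1 and ALEH01124379.1 a locus of the Candidate_97 group came first and the 153-read sequence followed after 2439 and 2412 bases. Candidate_909 was followed by its identical copy Candidate_910 after 2718 bases.

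The contigs fell into 3 runs of names. From ALEH01124376.1 to ALEH01124406.1, 18 contigs held 26 loci, all on the minus strand. From ALEH01113580.1 to ALEH01113582.1, 3 contigs held 5 loci, all on the plus strand, and ALEH01160448.1 and ALEH01160449.1 held 1 locus each on the minus strand. No bat candidate outside the family lay on any contig whose name falls within these runs. Whether contigs with successive names are neighbours in the genome, on which chromosome they lie, and whether like stretches are copies in the genome or repeats within the assembly was not tested.

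**Figure D5:**
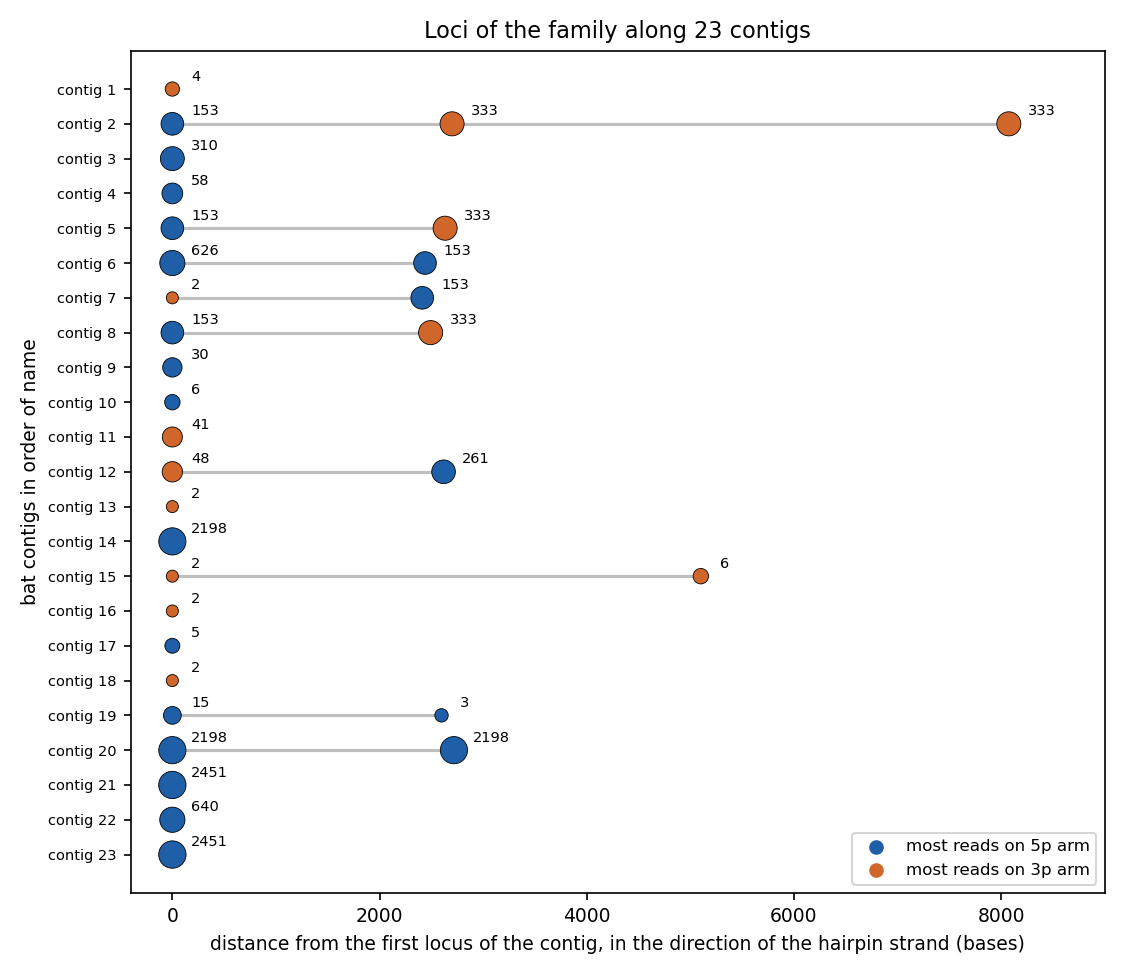
Loci of the family on the 23 contigs, in order of contig name, by distance in bases from the first locus along the strand, with the reads of the best sequence printed at each point and point size growing with its logarithm. Blue points have most reads on the 5p arm and orange points on the 3p arm. Neighbouring loci of most pairs are 2380 to 2718 bases apart by their lower coordinates.

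No counterpart of the family was found in the other lists. None of the 439 horse and none of the 252 dog candidates aligned to a member within the limits of the family. Taking 3 counts of the total as the limit for a count of 0, in place of the exact interval, this allows a share of up to 0.683% in the horse and 1.19% in the dog, for counting error only. The longest alignments at an E-value of up to 10 were 45 bases in the horse and 31 in the dog. These are lists from 1 library a species, so they do not show whether the genomes hold such hairpins.

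Seeds of the family were also looked for in the mature sequences outside it. The leading seed TGGCTGC was found in 1 other bat candidate, Candidate_696 with 12 reads at ALEH01001028.1, 1392 to 1524 on the minus strand, whose sequence is tTGGCTGCtgagcctgaacaggct. It equals Candidate_97 over the first 8 bases, and its hairpin was not joined to the family. The seed TTGCAGT of Candidate_196 was found in horse Candidate_686 with 1 read and in dog Candidate_256 with 11 reads. The other 20 seeds were in no mature sequence outside the family in the 3 lists. How often the seeds of other candidates recur in these lists was not measured, so this count does not mark the family out.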

How the data were processed

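Hairpin candidates were obtained by the authors with a local installation of miRanalyzer, as the deposited column notes say. In the lists deposited by the authors, counts are distinct read sequences and summed reads for each candidate, with no normalization. The deposited score tells how many of the 5 models predicted it, 4 or 5 in the family, and the deposited fraction is its share of the analysed reads, to 3 decimals. The labels leave out trimming, mapping settings and the bat build, and CanFam 3.1 is named in the submitters' processing notes. Totals of the listed reads are not library depths.

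Hairpins were aligned with blastn 2.17.0 (word size 7, E-value 0.001, no masking of simple sequence) and joined by single linkage. Hairpins overlapping on the same strand were merged into loci. Arms were taken from the middle of the mature sequence in its hairpin. Folding used RNAfold 2.7.2, alignment MAFFT 7.526, and the rest Python 3.11.15 with pandas 2.3.3, scipy 1.17.1 and biopython 1.88. The family step was also run on simulated hairpins, made of copies of common hairpins and of unrelated ones. Those copies were closer to each other than the least alike loci here. The run therefore does not show how well chains of such unlike loci are joined. Members and lists were chosen with earlier results of these data known. Named were the 10 candidates with most reads, the leader of each seed with 10 reads or more, strongly read loci with several sequences, and candidates at the edge of the family. Members on opposite strands of a stretch were to be named too, and there were none. Candidates named beside these were chosen after their values were seen. Alternatives were a limit of 90% identity, 80 bases or an E-value of 1e-10, members with at least 10 reads or all 5 models, and identical sequences once. A further alternative was the family without the sequence of Candidate_97 and Candidate_493. For the horse and dog search they were 70% identity, 30 bases or an E-value of 1.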

Additional observations from a re-analysis of the deposited data

How the results depend on the processing

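Limits of 80 bases or an E-value of 1e-10 gave the same values throughout. At 90% identity 22 members remained, with 8 seeds, 14.4% of the listed reads, a folding energy of -0.44 kcal/mol per base and 0% of loci as inverted repeats. Members with at least 10 reads numbered 29, with 14 seeds and 65.5% on the 5p arm. Members predicted by all 5 models held 17.4% of the reads. With identical sequences once there were 28 members, 7306 reads, 9.32% of the listed reads and a nearest identity of 91.2%. Without the sequence of Candidate_97 and Candidate_493 the counts summed to 10929 reads, 13.0% of the listed reads without that sequence. With each sequence once they summed to 4855 reads, 6.40% of the reads listed once without it. The totals of these shares also leave that sequence out, so they are not the totals used for the other shares here. The sequence of Candidate_155, which differs by 1 base and had 2198 reads, stayed in. The pair of sequences held 63.6% of the family's reads with each sequence once, and leaving out both was not tried. In the horse and dog search, limits of 70% identity, 30 bases or an E-value of 1, each loosened alone, gave no match. The first and last kept 50 bases, above the longest alignments of 45 bases in the horse and 31 in the dog. The limit of 30 bases kept an E-value of 0.001, and the lowest were 0.056 in the horse and 0.003 in the dog. So with these alignments none of the settings could give a match. With 1 library no replicate could be left out and no paired analysis was possible because the lists hold 1 sample a species.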
